A study of Homo sapiens with 16 samples.

Results

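The retinoid receptor genes are 6 nuclear receptor genes, RARA, RARB and RARG for the retinoic acid receptors and RXRA, RXRB and RXRG for the retinoid X receptors. They were taken by symbol from the deposited tables, which list 27037 genes, and all 6 symbols were present. RNA-seq was performed on SK-N-BE(2)C, an established adrenergic neuroblastoma line with amplified MYCN, in 4 groups of 4 replicates: cells given DMSO as vehicle, 10 µM retinoic acid (RA), 1 µM palbociclib (PB, which blocks the CDK4 and CDK6 kinases of the cell cycle), or both agents (PB + RA), for 5 days. All groups come from this single line, so its genetic background is shared by the control and treated cells, and replicates were separate platings of cells at different passages. Of the 6 receptor genes, 4 (RARA, RARB, RARG and RXRA) passed the filter on low counts and were tested among 15415 genes. RXRB and RXRG did not pass it and are described by their counts.

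An RAR binds DNA as a heterodimer with an RXR at retinoic acid response elements, which are often direct repeats of a short core motif, and all-trans RA is a ligand of the RAR member of the pair. Without ligand the pair holds corepressors on its target genes, and ligand exchanges them for coactivators. RXRs are also the obligate partners of the vitamin D, thyroid hormone, PPAR and LXR receptors, so RXR supply is shared between several pathways. In neuroblastoma, retinoids are used clinically to promote differentiation.

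RARB carries the classic response element of this family in one of its promoters, and this sequence is shown because RARB had the largest RA response among the 4 tested receptors. The stretch covers the 120 bases before a RefSeq RARB start and matched GRCh37 (hg19) once, at chr3:25469634-25469753 on the plus strand, inside the RARB gene. Capitals mark the direct repeat with a spacer of 5 bases (DR5), at chr3:25469701-25469717, from base -53 to -37 relative to the start.
RARB promoter: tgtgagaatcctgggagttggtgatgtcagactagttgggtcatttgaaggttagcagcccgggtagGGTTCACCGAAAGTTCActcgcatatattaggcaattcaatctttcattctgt

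Direct repeats of the core motif, written as AGGTCA or AGTTCA or GGGTCA or GGTTCA and in any combination, with spacers of 1, 2 or 5 bases, were searched on both strands in RefSeq promoter windows of GRCh38.p14 that run from 250 bases before to 50 after a start. Among 35116 windows, a DR5 was found in 31 (0.0883%), a DR1 in 46 (0.131%) and a DR2 in 14 (0.0399%). The 6 receptor genes had 13 windows, 3 of them for RARA, 4 for RARB, 1 for RARG, 2 for RXRA, 2 for RXRB and 1 for RXRG. The RARB element shown was the single match among them. The other 12 windows hold none of these letters, which describes these windows alone.

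RARA (GRCh37, chr17:38465432-38513895, plus strand) was the most abundant of the 4 tested receptor transcripts in every group. Its CPM (counts scaled to a common total per sample) in replicates 1 to 4 were 87.3, 70.3, 93.2 and 94.1 in DMSO, and 190, 164, 205 and 203 in RA. All 4 RA samples were above all 4 DMSO samples, and the fitted log2 fold change (log2FC) was 1.14 ± 0.089 (SE, n = 4 against 4, edgeR adjusted p = 1.66e-07), a 2.20-fold rise. RARA encodes the most widely expressed RAR. In PB its values were 99.4, 93.8, 107 and 99.8 CPM, which overlapped DMSO. The log2FC of 0.22 ± 0.089 (edgeR adjusted p = 0.0492) was under the log2 minimum of 0.5 and RARA was not called in PB. In PB + RA it was at 209, 186, 214 and 203 CPM, with a log2FC of 1.21 ± 0.089 over DMSO (edgeR adjusted p = 4.3e-09) and of 0.99 ± 0.089 over PB (edgeR adjusted p = 4.14e-07). An antisense gene, RARA-AS1, shares 556 exonic bases with RARA on the opposite strand, and averaged 7.03 CPM against 145 CPM for RARA over the 16 samples.

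RARB (chr3:24729378-25639423, plus strand) encodes a receptor that is itself a direct target of RAR signalling. It was at 7.09, 5.38, 10.0 and 10.2 CPM in DMSO and at 22.5, 20.1, 33.8 and 36.3 CPM in RA. No RA sample overlapped a DMSO sample, and the 3.41-fold rise (log2FC 1.77 ± 0.24, edgeR adjusted p = 4.72e-05) carried the widest error among the 4 tested receptors. Replicates 3 and 4 lay above replicates 1 and 2 in DMSO and RA and also in PB + RA (24.6, 20.7, 28.4 and 38.5 CPM). In PB this order was not seen, with 11.5, 9.58, 11.4 and 11.3 CPM. RARB was not called in PB (log2FC 0.42 ± 0.24, edgeR adjusted p = 0.156), but in replicates 1 and 2 alone it was (log2FC 0.74, edgeR adjusted p = 0.0029), against 0.12 in replicates 3 and 4 alone. In PB + RA the log2FC was 1.74 ± 0.24 over DMSO (edgeR adjusted p = 8.65e-06) and 1.33 ± 0.23 over PB (edgeR adjusted p = 0.000406).

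RARG (chr12:53604351-53626764, minus strand) rose less than RARA and RARB. Its values were 38.2, 45.2, 44.1 and 42.0 CPM in DMSO and 54.2, 65.1, 59.9 and 61.4 CPM in RA, and the groups did not overlap. The log2FC of 0.497 ± 0.091 (edgeR adjusted p = 0.000553) fell just under the log2 minimum, so RARG was not called in RA. It passed without DMSO replicate 2 (log2FC 0.52) or RA replicate 1 (0.53), and in replicates 1 and 2 alone (0.51). In PB, with 47.2, 44.6, 41.6 and 38.1 CPM, RARG was close to DMSO (log2FC 0.02 ± 0.091, edgeR adjusted p = 0.891).

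RARG was called in PB + RA, where it was at 71.5, 68.7, 59.2 and 54.4 CPM, with a log2FC of 0.56 ± 0.091 over DMSO (edgeR adjusted p = 4.45e-05) and 0.54 ± 0.091 over PB (edgeR adjusted p = 0.000225). Replicates 1 and 2 were above replicates 3 and 4 in both PB and PB + RA. The call over DMSO was lost in replicates 3 and 4 alone (log2FC 0.33), after a correction for GC content and length (0.35), and without DMSO replicate 1 (0.50), PB + RA replicate 1 (0.46) or PB + RA replicate 2 (0.49). The call over PB was lost in replicates 3 and 4 alone (0.49), after the same correction (0.45), and without PB replicate 4 (0.49), PB + RA replicate 1 (0.47) or PB + RA replicate 2 (0.50). RARG thus lay at the log2 minimum whenever RA was given, whether or not PB was present.

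**Figure D1:**
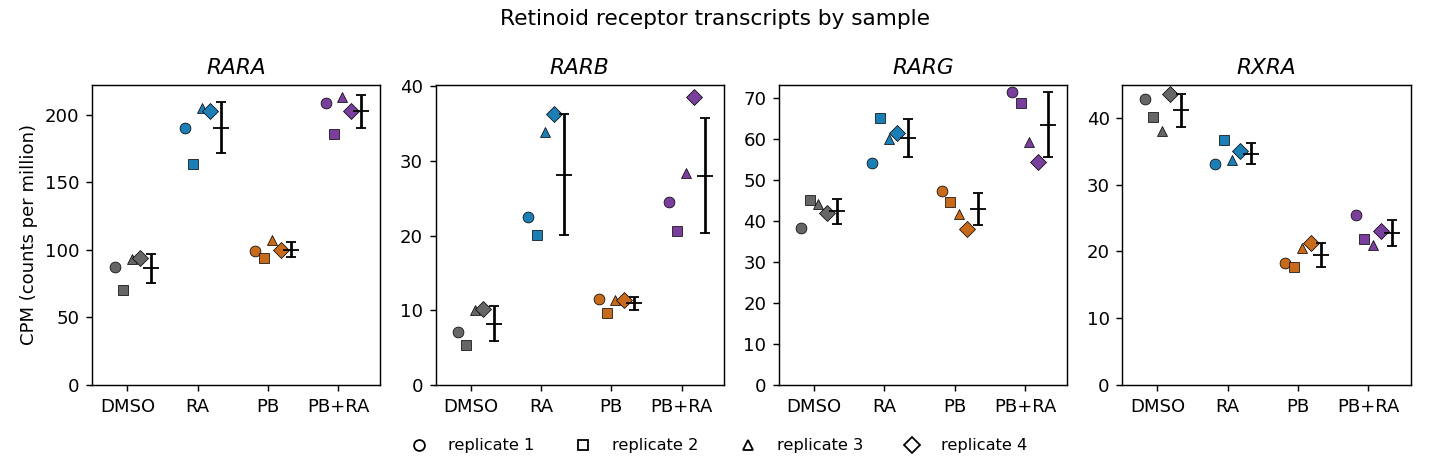
CPM (vertical axes from 0, one scale per gene) of RARA, RARB, RARG and RXRA in each of the 16 samples by group, with marker shapes for replicates 1 to 4 and, at the right of each group, the mean and SD of 4 replicates. RARA and RARB were higher in both groups given RA, and RXRA was lowest in PB (17.7 to 21.3 CPM).

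RXRA was the receptor gene that PB lowered. RXRA (chr9:137208944-137332431, plus strand) encodes the RXR that was measurable in these cells. It was at 42.8, 40.1, 38.0 and 43.5 CPM in DMSO and at 18.3, 17.7, 20.6 and 21.3 CPM in PB. Every PB sample was below every DMSO sample, and RXRA was 2.11-fold lower in PB (log2FC -1.08 ± 0.076, edgeR adjusted p = 1.06e-08). In RA its values of 33.1, 36.8, 33.7 and 35.1 CPM were also all below DMSO, but the log2FC of -0.25 ± 0.074 (edgeR adjusted p = 0.0139) was under the log2 minimum and RXRA was not called. In PB + RA it was at 25.4, 21.8, 20.9 and 23.1 CPM, 1.84-fold lower than in DMSO (log2FC -0.88 ± 0.076, edgeR adjusted p = 2.94e-08).

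Adding PB to RA lowered RXRA 1.54-fold (log2FC -0.62 ± 0.076, edgeR adjusted p = 3.33e-06). The CPM values of PB and PB + RA overlapped, and adding RA to PB gave a log2FC of 0.20 ± 0.077 (edgeR adjusted p = 0.0518), with 0.38 (adjusted p = 0.0172) in replicates 1 and 2 alone and 0.04 (adjusted p = 0.739) in replicates 3 and 4 alone. With the replicate number as a block it was 0.20 (edgeR adjusted p = 0.0293), still under the log2 minimum. The fall in RXRA was therefore smaller with both agents than the sum of the 2 single changes. The difference, the interaction of PB and RA, was 0.45 ± 0.11 on the log2 scale (edgeR adjusted p = 0.0199), which is under the log2 minimum. It passed that minimum after the GC and length correction (0.56) and when replicates 1 and 2 alone were used (0.63). It also passed without DMSO replicate 3 (0.53), PB replicate 3 (0.53), PB replicate 4 (0.51) or PB + RA replicate 3 (0.50), and it was 0.34 in replicates 3 and 4 alone (adjusted p = 0.0738).

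In the main fit, which does not use the replicate number, the interaction did not pass the test for any of the 3 RAR genes. It was -0.15 ± 0.12 for RARA (edgeR adjusted p = 0.612), -0.44 ± 0.33 for RARB (adjusted p = 0.542) and 0.04 ± 0.13 for RARG (adjusted p = 0.919). Adding PB to RA did not move any of the 3 past the test either. For RARA the log2FC of PB + RA over RA was 0.07, with a 95% interval from -0.10 to 0.24. For RARB it was -0.03, with the wider interval of -0.47 to 0.41, and for RARG 0.06, from -0.12 to 0.24. With the replicate number as a block the RARB value was -0.02, with an interval of -0.21 to 0.16. In that fit the RARB interaction was -0.47 (95% interval -0.76 to -0.18, edgeR adjusted p = 0.0366). This passed the threshold on adjusted p but was under the log2 minimum in size. The interactions of RARA (-0.15, edgeR adjusted p = 0.142) and RARG (0.04, edgeR adjusted p = 0.847) did not pass that threshold.

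Counted over the 4 tested receptors, 0 were called higher and 1 lower in PB, while 16.9% of all tested genes were called higher and 11.3% lower. In RA, 2 were called higher and 0 lower, against 10.8% and 2.54% of all genes. In PB + RA, 3 were higher and 1 lower over DMSO, against 24.0% and 17.9%. All 4 tested receptors were thus called in PB + RA, the comparison with the most calls over all genes.

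Over PB, 3 were higher (the RAR genes, RARG with the exceptions given above) and 0 lower, against 9.02% and 7.27% of all genes. Over RA, 0 were higher and 1 lower (RXRA), against 14.9% and 14.1%. In the interaction 0 were called in either direction, against 0.415% of genes above additive and 3.02% below. These comparisons share samples, so their counts are not independent of each other. Where edgeR called 0 receptors, DESeq2 and limma-voom also called 0. At an unadjusted p under 0.05, edgeR gave 1 higher in PB (RARA), 1 lower in RA (RXRA) and 1 above additive in the interaction (RXRA). It gave 0 lower over PB, 0 higher over RA and 0 below additive.

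**Figure D2:**
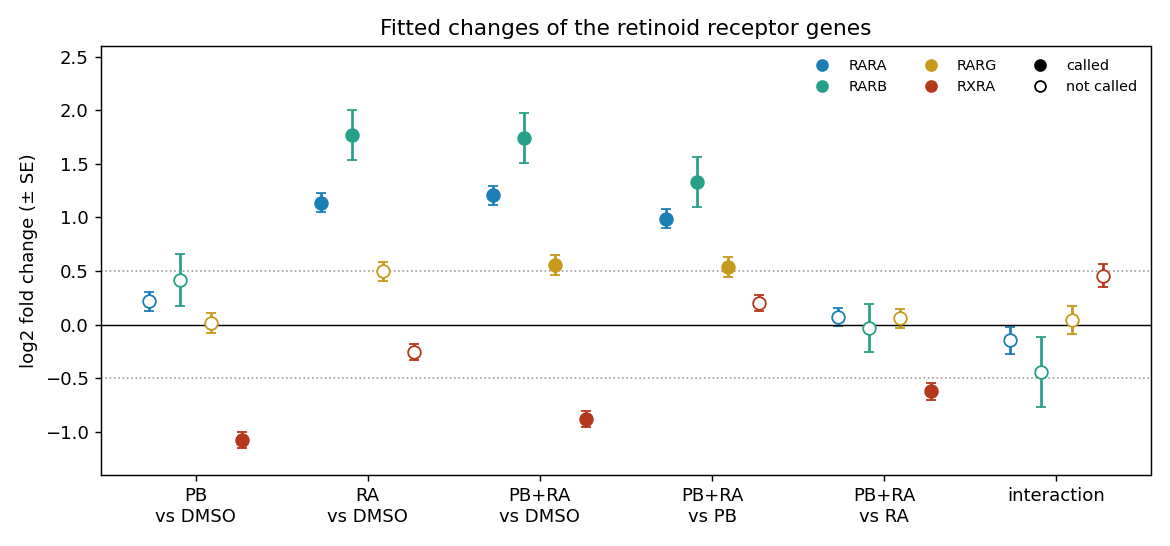
Fitted log2 fold change with its SE (edgeR, 4 replicates a group) for the 4 tested receptor genes in each comparison. Filled points were called and open points were not, and dotted lines mark the log2 minimum of 0.5. RXRA is the one gene below -0.5, with PB (-1.08), with both agents (-0.88) and with PB + RA over RA (-0.62).

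To set levels of different genes side by side, CPM were divided by exon length in kilobases over all exons of a gene. On this scale the order in DMSO was RARA (18.2 ± 2.33 CPM per kb, SD, n = 4), RARG (8.27 ± 0.597), RXRA (3.40 ± 0.208) and RARB (0.866 ± 0.249). The ranges of neighbours in this order did not overlap. In PB the order was the same, with RARA at 21.1 ± 1.17, RARG at 8.36 ± 0.769, RXRA at 1.61 ± 0.145 and RARB at 1.16 ± 0.0954. RXRA (1.46 to 1.76) and RARB (1.01 to 1.21) had come close without overlapping.

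In both groups given RA, the mean RARB level over all exons was at or above that of RXRA. In RA, RARA was at 40.2 ± 4.03 CPM per kb, RARG at 11.7 ± 0.888, RARB at 2.98 ± 0.853 and RXRA at 2.87 ± 0.136, and RARB and RXRA did not differ beyond their spread (2.13 to 3.84 and 2.74 to 3.04). In PB + RA, RARA was at 42.7 ± 2.59, RARG at 12.4 ± 1.56, RARB at 2.97 ± 0.812 and RXRA at 1.89 ± 0.162. Here RARB (2.19 to 4.08) lay wholly above RXRA (1.73 to 2.10). With the longest transcript as the length instead, RARB and RXRA were at 5.75 and 6.01 CPM per kb in RA and at 5.73 and 3.95 in PB + RA, so the order of the means in RA depends on the length used. In PB + RA the means kept their order, but the ranges overlapped on that length, with RARB replicate 2 at 4.22 and RXRA replicate 1 at 4.40 CPM per kb.

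Over all exons, the summed level of the 3 RAR genes was 27.3 ± 2.41 CPM per kb in DMSO, 30.6 ± 1.23 in PB, 54.9 ± 4.54 in RA and 58.1 ± 2.62 in PB + RA. With the longest transcript as the length, these sums were 42.5, 47.5, 84.6 and 89.4. RARA made up most of it in every group, with 66.4% ± 3.55 (SD, n = 4) in DMSO, 68.9% ± 2.28 in PB, 73.1% ± 2.36 in RA and 73.5% ± 1.79 in PB + RA. The RARG share was 30.5% ± 3.998 in DMSO and 27.3% ± 2.43 in PB, and 21.5% ± 2.82 in RA and 21.3% ± 2.86 in PB + RA. RARB stayed the smallest share, at 3.13% ± 0.653, 3.78% ± 0.253, 5.37% ± 1.13 and 5.11% ± 1.40 in the same order. With the longest transcript as the length, the RARA shares were 61.7%, 64.4%, 68.7% and 69.2% in this order. The RARG shares were then 34.4%, 30.9%, 24.5% and 24.4%, and those of RARB 3.88%, 4.70%, 6.72% and 6.41%. RARB thus had the largest fold response of the RAR genes and still gave a small part of the RAR transcripts.

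The ratio of RARA to RXRA (each per kb over all exons) was 5.35 ± 0.736 in DMSO. It was 14.1 ± 1.85 in RA and 13.2 ± 0.840 in PB, and 22.8 ± 2.25 with both agents. The single agents gave overlapping ratios, 11.4 to 15.5 in RA and 11.9 to 13.8 in PB. The levels behind these ratios differed: relative to DMSO, RARA was called higher in RA, and RXRA was called lower in PB. Smaller changes that were not called also went toward a higher ratio, for RXRA in RA (log2FC -0.25) and for RARA in PB (0.22). With both agents all 4 samples (21.0 to 26.0) were above every sample of the other groups. The ratio is of transcripts, and no protein was measured.

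**Figure D3:**
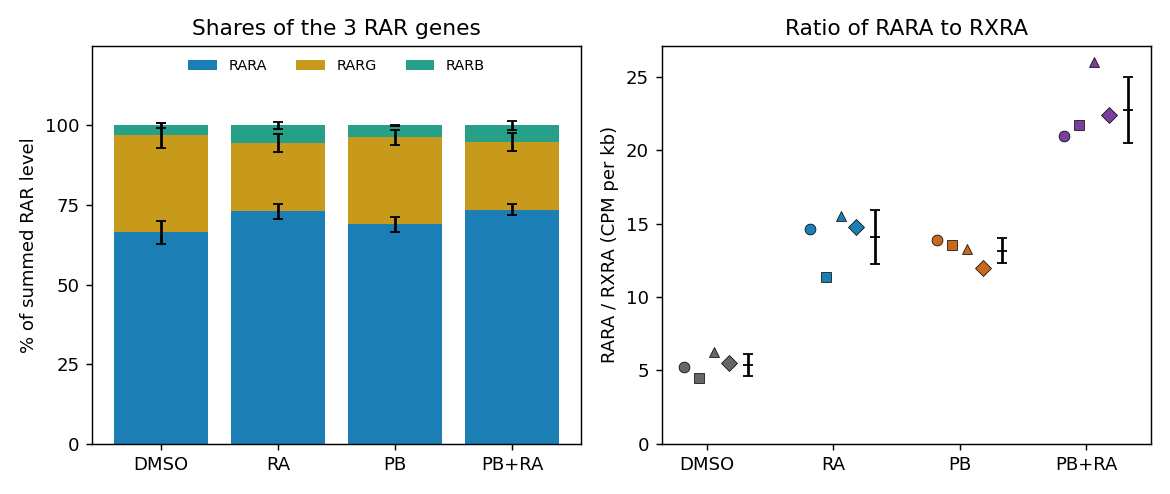
Left, mean share of each RAR gene in the summed RAR level (percent, CPM per kb over all exons), with bars stacked and SD of 4 replicates at each boundary. Right, ratio of RARA to RXRA per sample on the same scale, with circles, squares, triangles and diamonds for replicates 1 to 4 and the mean and SD beside them, rising from 5.35 in DMSO to 22.8 in PB + RA.

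RXRB and RXRG were close to 0 in every sample. RXRG (chr1:165370159-165414592, minus strand), whose expression is known to be restricted to fewer tissues than that of RXRA, had 1 count in all 16 samples together, in RA replicate 1 (0.0410 CPM). A count of 0 is compatible with up to 3 counts, considering counting error alone, which is 0.0949 to 0.154 CPM at the depths of these samples. RXRB (chr6:33161365-33168442, minus strand) encodes an RXR that is known to be widely expressed. Its counts in replicates 1 to 4 were 5, 2, 9 and 6 in DMSO, 4, 3, 7 and 3 in RA, 3, 0, 6 and 8 in PB, and 6, 10, 6 and 4 in PB + RA. The groups overlapped throughout, the mean over all samples was 0.210 CPM, and no fold change is given.

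The low RXRB counts were shared by the genes around it. RXRB lies beside the MHC on chromosome 6, and of 24 protein-coding genes within 500 kb of it, 17 (70.8%) averaged below 1 CPM. The share was 27.7% of 16585 protein-coding genes in all and between 20% and 28.6% around the other 5 receptor genes. Those 5 shares rest on 21 genes for RARA, 4 for RARB, 28 for RARG, 7 for RXRA and 5 for RXRG. The median of the 24 was 0.0579 CPM, against 18.8 CPM for all protein-coding genes. RPS18, which encodes a protein of the small ribosomal subunit that every cell needs, lies in this stretch and averaged 0.0311 CPM with at most 2 counts in a sample, while 78 ribosomal protein genes had a median of 467 CPM. SLC39A7, which encodes a zinc transporter and shares 361 exonic bases with RXRB on the opposite strand, was at 0.00566 CPM. Genes such as BRD2 (12.3 CPM), a chromatin reader, and BAK1 (47.1 CPM), an effector of apoptosis, were well above 1 CPM. hg19 as distributed holds alternate copies of the MHC region, to which reads can align equally well, and their part in these counts was not tested. The RXRB values are therefore given as counts in the table and not as a measure of RXRB expression, and statements on RXR supply cover RXRA alone.

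**Figure D4:**
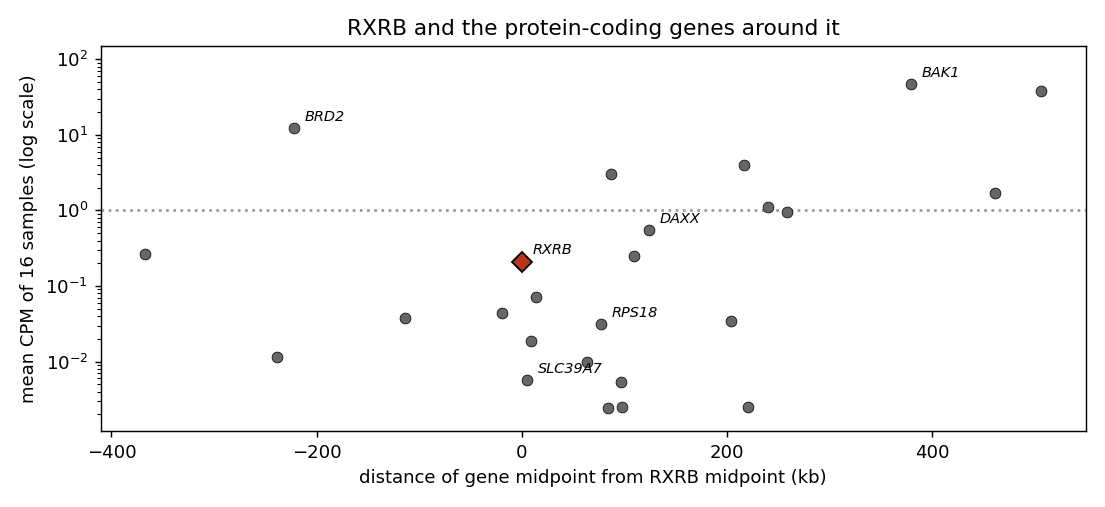
Mean CPM over 16 samples (log scale) of RXRB (diamond) and of the protein-coding genes around it (circles), by the distance in kb between gene midpoints. The dotted line marks 1 CPM, and 17 of the 24 neighbours lie below it, RPS18 at 0.0311 CPM among them.

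Coregulators were called at shares near or under those of all tested genes. Of 18 coactivators, corepressors and integrator subunits, all of them tested, 0 were called higher and 1 lower in PB, 2 higher and 0 lower in RA, and 1 higher and 4 lower in PB + RA. The shares of all tested genes called higher and lower were 16.9% and 11.3% in PB, 10.8% and 2.54% in RA, and 24.0% and 17.9% in PB + RA, and the counts of the lists that follow stand against the same shares. The median log2FC of the coregulators was -0.18, 0.05 and -0.17, against 0.03, 0.01 and 0.04 for all tested genes. SIN3A, a scaffold of histone deacetylase complexes, was the one that fell in PB (log2FC -0.53 ± 0.058, edgeR adjusted p = 1.2e-06). It fell in PB + RA too (-0.59 ± 0.058), a call lost in replicates 3 and 4 alone, where it was -0.50. The coactivator NCOA3 rose in RA (0.63 ± 0.085) and PB + RA (0.70 ± 0.085), but shares 247 exonic bases on the opposite strand with SULF2, which was more abundant (118 against 52.1 CPM).

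Among 13 genes for other nuclear receptors that pair with RXR, 8 were tested, and 1 was called higher and 1 lower in PB, 3 and 0 in RA, and 3 and 1 in PB + RA. The PB counts are near the shares of all genes (16.9% and 11.3%), and with 8 genes 1 call is a large share. PPARG, the fat-cell PPAR receptor, was at 12.3 CPM in DMSO and rose to 34.1 CPM in RA (log2FC 1.46 ± 0.18) and 38.2 CPM in PB + RA (1.61 ± 0.18). NR4A1, an orphan receptor encoded by an immediate early gene, fell in PB (-0.93 ± 0.076, edgeR adjusted p = 4.35e-08). Its relative NR4A2 rose in RA (1.51 ± 0.24) and in PB + RA (3.43 ± 0.22), from 0.435 CPM in DMSO to 4.83 CPM with both. The NR4A2 rise in PB (0.80 ± 0.25, edgeR adjusted p = 0.0136) was lost in 3 alternatives, among them leaving out PB replicate 1, and ranged from 0.26 to 1.23. VDR and THRB, the vitamin D receptor and a thyroid hormone receptor, were among the 5 genes too low to test.

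The COUP-TF and testicular receptors, orphan receptors that can bind the same repeats, were all 5 tested, with 1 called higher in RA and 1 lower in PB + RA (17.9% of all genes) and 0 called in PB, which is too few to set apart from all genes. NR2F1 rose in RA from 29.3 to 61.3 CPM (log2FC 1.06 ± 0.19, edgeR adjusted p = 0.000727), a call lost in replicates 1 and 2 alone. In PB + RA it was at 27.2 CPM, not called over DMSO (-0.14 ± 0.20) and called lower over RA (-1.20 ± 0.20, edgeR adjusted p = 0.000101). Its interaction of PB and RA did not pass the test (edgeR adjusted p = 0.0996). NR2F2 fell in PB + RA (-0.53 ± 0.066).

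Of 16 genes for retinoid uptake, binding, synthesis and breakdown, 11 were tested, and 7 were called higher in RA, 7 higher and 1 lower in PB + RA, and 1 higher in PB, against 10.8%, 24.0% and 16.9% of all genes called higher. Of 20 known targets, 14 were tested, and 11 were called higher in RA, 13 in PB + RA and 2 in PB, with none lower, against the same shares, and the 2 in PB are near the share of all genes. The medians of the targets were 1.36, 1.11 and 0.12 on the log2 scale. CYP26A1, which encodes the enzyme that breaks down RA, had the largest rise in RA among the tested handling genes, from 0.109 CPM in DMSO to 74.6 CPM in RA, and its DMSO level is near the limit of these depths. CYP26B1, its relative, rose by a log2FC of 6.79 ± 0.29 in RA and 7.45 ± 0.30 in PB + RA. In PB the called genes were STRA6, the retinol uptake receptor (0.57 ± 0.068, 0.43 after the GC and length correction), and RARRES1, a retinoid-induced gene (0.59 ± 0.18). RARRES1 lost this call in replicates 1 and 2 alone, without DMSO replicate 4 and without PB replicate 3 (lowest value over the 17 alternatives 0.39), and it shares 292 exonic bases on the opposite strand with the more abundant MFSD1. The CYP26 genes and STRA6 stand in both lists, so the lists are not independent.

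Genes with changes most like those of each receptor were listed by the root mean square difference of the 3 log2FCs over DMSO, among 10001 other genes of at least 10 CPM. For RARA these were COL5A1 (difference 0.0370), MEIS1 (0.0379) and PLXNB1 (0.0893), and for RARB SIPA1L2 (0.143), ITGA1 (0.158) and PRSS23 (0.171). For RARG they were CCDC93 (0.0282), LINC02623 (0.0374) and MAGED2 (0.0454), and for RXRA AIFM2 (0.0427), KREMEN1 (0.0699) and SPA17 (0.0864). RARB had no neighbour as close as those of the other 3 receptors.

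Libraries held 19.5 to 31.6 M counts, and over all tested genes the log2FC had medians of -0.04 to 0.04. All 8 adrenergic marker genes were present at 1 CPM or more in every group, with summed levels of 5081 to 5573 CPM in DMSO, 4940 to 5904 in RA, 8000 to 9235 in PB and 6431 to 8544 in PB + RA. MYCN was the largest part of these sums, with means of 2947 CPM in DMSO and 5482 in PB. Singly, TH and DBH were called higher and GATA3 lower in RA, the DBH call being lost in 7 of 17 alternatives. In PB, TH, DBH, GATA3 and MYCN were called higher. The GATA3 calls in RA and in PB were each lost in replicates 1 and 2 alone. In PB + RA, TH was called higher, as were DBH and MYCN, calls lost in 2 and 4 alternatives. The other adrenergic markers were not called over DMSO. The 4 mesenchymal markers listed in the table summed to 929 to 1187 CPM in DMSO, 1714 to 2147 in RA, 713 to 876 in PB and 952 to 1421 in PB + RA. Gene by gene, FN1, COL1A1 and YAP1 were called higher in RA and VIM and YAP1 lower in PB. The COL1A1 call in RA and the VIM and YAP1 calls in PB were each lost in replicates 1 and 2 alone. FN1 and COL1A1 had a log2FC of -0.01 and -0.03 in PB. In PB + RA, FN1 was called higher and VIM lower, the VIM call being lost in 3 alternatives. The part of these marker changes in the receptor values was not tested, and in bulk RNA a change in the share of cells and a change per cell cannot be told apart.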

How the data were processed

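Total polyadenylated RNA from 16 samples was sequenced as paired ends from strand-specific libraries. The submitters' processing notes name Trim Galore 0.6.4, STAR 2.6.1d and DESeq2 1.32.0 with hg19. The deposited counts are whole read counts per gene from STAR, not normalized, and the deposited CPM are those counts scaled to each sample's total, made by the authors. The annotation release and the strand setting of the counts are not given in the sources used here, so genes that overlap on opposite strands are uncertain. A deposited table of the authors' own comparisons (fold changes and p-values) was not used.

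Counts were fitted in R 4.3.3 with edgeR 4.0.16 (filterByExpr, TMM, robust quasi-likelihood F-test), with all 16 samples and 4 group coefficients. Benjamini-Hochberg adjustment ran over 15415 genes, and a gene was called at an adjusted p below 0.05 with a log2 fold change beyond 0.5. SE was derived from the F statistic, as the size of the log2 fold change over the root of F. The procedure was tested on simulated data. DESeq2 1.42.0 and limma-voom 3.58.1 served as alternatives. Gene models were GENCODE on GRCh37 and promoter windows RefSeq on GRCh38.p14.

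Besides the 6 receptors, the text names the 2 called genes of largest absolute log2 fold change in each list for PB, RA and PB + RA over DMSO, and 3 genes of at least 10 CPM most like each called receptor. VDR, THRB, the genes beside RXRB and the antisense partners were added after their values were seen. An item that this rule names is not reported here. The receptors and lists were chosen with earlier results of these data known. Samples with the same replicate number deviated together from their group means (24 pairs, r from 0.330 to 0.573). Some samples with different numbers did so as closely, such as PB replicate 4 and PB + RA replicate 3 (r = 0.447). Replicates 1 and 2 deviated opposite to replicates 3 and 4, such as PB replicate 2 against PB + RA replicate 3 (r = -0.492). These values show 2 sets of replicates and do not settle pairing by number. The values reported are from the fit without the replicate number, as planned, and the fit with it as a block is an alternative. Different libraries of a group differed by more than sampling noise.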

Additional observations from a re-analysis of the deposited data

Results flagged for a closer look

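RARB in PB replicate 2, at 9.58 CPM, stood apart from the other 3 PB replicates (11.3 to 11.5 CPM) by Dixon's test for 4 samples. This was 1 of 16 sets of 4 replicates examined (4 receptors in 4 groups), and chance gives about 1 in 20. RARB was not called in PB with or without it.

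The PB effect on RXRA was smaller in the presence of RA by the test of the difference, but not by enough to be called. The interaction was 0.45 ± 0.11 on the log2 scale (edgeR adjusted p = 0.0199), under the log2 minimum of 0.5, and 0.34 (adjusted p = 0.0738) in replicates 3 and 4 alone, with RXRA lower in PB than in DMSO in 4 of 4 samples against 4 and lower in PB + RA than in RA in 4 of 4 against 4. The values without single samples and in sets of replicates are given with RXRA above.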

How the results depend on the processing

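The 6 comparisons of the 4 tested receptors were recomputed under each alternative, giving 484 values. Of these, 435 kept direction and call, 15 lost the call, 14 gained it and 20 changed sign, all 20 in receptors not called on either side and none beyond 0.16 in size. For RARG in PB these were -0.0051 with RLE factors, -0.031 with no low-count filter, -0.0086 with DESeq2, -0.0043 with only the groups compared, -0.10 with the GC and length correction and -0.16 for replicates 3 and 4, with -0.16 to 0.13 over all alternatives and -0.055 to 0.0395 without single samples. For PB + RA over RA they were 0.066 for RARB in replicates 1 and 2 alone, and -0.10 for RARG in replicates 3 and 4 alone and -0.0011 after the correction. Without single samples that comparison ranged from -0.016 to 0.12 for RARA, -0.19 to 0.13 for RARB and -0.026 to 0.15 for RARG, and the RARG interaction from -0.015 to 0.15. The calls of RARA and RARB in RA, in PB + RA and over PB, and those of RXRA in PB, in PB + RA and over RA, held in each of the 17 alternatives that keep the log2 minimum of 0.5. With no log2 minimum, the called receptors were 2 in PB, 4 in RA and 1 in the interaction. At a log2 minimum of 1 they were 2 in PB + RA over DMSO, 1 over PB and 0 over RA. In replicates 1 and 2 alone, 2 were called in PB and 1 in the interaction. The GC and length correction gave 1 in the interaction. Leaving out 1 sample gave 0 to 1 in the interaction. With the replicate number as a block no call of a receptor changed, and the RXRA interaction was 0.45 (edgeR adjusted p = 0.00331). The block brought RARB to an adjusted p of 0.00214 in PB (log2FC 0.44) and 0.0366 in the interaction (-0.47), both still under the log2 minimum. It brought RARA in PB to an edgeR adjusted p of 0.000399 (log2FC 0.22), also under that minimum. RXRB and RXRG had too few counts to be tested.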
